A study of Homo sapiens with 12 samples.

Results

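Breast cancer cells that reach bone act on the cells that build and resorb it, and 6 genes tied to this behaviour of MDA-MB-231 cells were followed: PTHLH, IL11, CTGF, SPP1, CXCR4 and RUNX2. They were found by gene symbol among the 19907 symbols in each of 12 RNA-seq libraries, CTGF under this older symbol (now CCN2). All 6 were among the 18579 symbols with at least 10 reads over the 12 libraries, to which every test was applied. MDA-MB-231 is an established human line of triple-negative breast cancer, and the study asked how phosphorylation of 1 serine of the glucocorticoid receptor (GR, encoded by NR3C1) shapes transcription with and without transforming growth factor β1 (TGFβ1). Its 4 groups of 3 libraries were wt-GR cells under vehicle, wt-GR cells under TGFβ1, S134A-GR cells under vehicle and S134A-GR cells under TGFβ1. S134A-GR cells are 1 CRISPR knock-in clone in which alanine replaces that serine in the endogenous receptor (S134A). The wt-GR line is another clone out of the same edited population, one that was not targeted. All cells were starved for 18 h in IMEM with 1% DCC serum and then treated for 6 h, with TGFβ1 given at 10 ng/mL. Line and clone cannot be told apart in this design, and whether the cells carry the substitution was not tested here. Libraries held between 56362036 reads (wt-GR, vehicle, replicate 1) and 129832227 reads (wt-GR, TGFβ1, replicate 2). Whether single reads or pairs were counted is not given in the sources used here, and a read below is 1 unit of that counting. The average depth stated in the labels is well below the depth of these libraries, and the reason was not tested. Nothing in the labels says that the replicates were separate cultures, so p-values measure only the spread between these samples, which may be technical.

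Bone metastases of breast cancer often form an osteolytic cycle. Tumour cells secrete parathyroid hormone-related protein (encoded by PTHLH) and interleukin 11, which act on osteoblasts and raise the signals that form osteoclasts. Resorbed bone then releases stored TGFβ, which acts back on the tumour cells. CTGF and osteopontin (encoded by SPP1) are secreted proteins that bind matrix and cell-surface receptors, CXCR4 is the receptor through which tumour cells follow the chemokine CXCL12, and RUNX2 is the transcription factor of the osteoblast lineage that breast cancer cells also express.

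The label of the cells was compared with genes known to mark or to be missing from this line. VIM, CD44, AXL and ANXA1 (4 of 4 mesenchymal or basal markers) were abundant, with summed group means of 653995, 744132, 668020 and 777205 normalized counts in wt-GR vehicle, wt-GR TGFβ1, S134A-GR vehicle and S134A-GR TGFβ1 cells, and VIM was the most abundant. A normalized count is the number of reads of a gene divided by the size factor of its library. ESR1, the estrogen receptor, had group means between 0.702 and 6.02 and CDH1, which encodes E-cadherin, between 4.09 and 9.37. For scale, 3 reads are 2.15 to 4.89 normalized counts depending on the library. The S134A-GR vehicle libraries lay above that level for CDH1, at 7.54 to 12.5. Epithelial genes were not all missing. EPCAM had means of 1024 in wt-GR and 378 in S134A-GR cells under vehicle, and KRT19 had 4158 and 837. KRT8, with 63025 and 65433, did not pass under vehicle (log2 0.05, limma adjusted p = 0.389) but was lower in S134A-GR cells under TGFβ1 (log2 -0.20, limma adjusted p = 0.00349). KRT18 was lower under both treatments (log2 -0.21 and -0.35), as were EPCAM and KRT19, while ERBB2 was higher under both (log2 0.24 each). Of the markers of blood cells, 3 of 4 were in the files, and their sum (28057, 27064, 41448 and 40986 in the same order of groups) was almost all CD68, while PTPRC, which defines leukocytes, stayed between 1.46 and 7.18 and CD14 had vehicle means of 30.4 in wt-GR and 4.62 in S134A-GR cells (log2 -2.58, limma adjusted p = 0.000245). Endothelial markers summed to 1941, 1485, 1524 and 1045, mostly PECAM1. Of these CDH5 had 186.6 and 19.0 under vehicle (log2 -3.28), and VWF fell with TGFβ1 by 0.85 and 1.01 (log2 -0.85 and -1.01). Osteoclast markers summed to 325, 339, 470.5 and 458, mostly CTSK. With TGFβ1 CALCR rose by 2.07 and 1.68 on the log2 scale, while CTSK (-0.34 and -0.18), OSCAR (-0.24 and -0.41) and ACP5 did not pass. ACP5 had vehicle means of 11.3 and 35.4 (log2 2.39, limma adjusted p = 0.0227), a call lost without S134A-GR vehicle replicate 1 (2.40) or 2 (2.21) and in a fit of only the compared groups. Fibroblast markers summed to 18.8, 29.7, 5.92 and 9.59, mostly PDGFRA. Osteoblast markers summed to 41.2, 24.8, 63.5 and 32.9 (2 of 3 in the files), with BGLAP the most abundant and SP7, which defines the lineage, at 0 in every wt-GR library and at means of 1.30 and 0.337 in S134A-GR cells. The part of other cells in the results was not tested, and in bulk samples fewer cells of a type and less RNA per cell cannot be told apart.

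TGFβ1 raised PTHLH, IL11, CTGF, SPP1 and CXCR4 and lowered RUNX2 in wt-GR cells (6 of 6 with an adjusted p under 0.05 in limma), while 21% of all genes tested passed, 11.2% higher and 9.82% lower. IL11 and CXCR4 (2 of 6) also reached an absolute log2 fold change of 1, as did 2.29% of all genes. In S134A-GR cells TGFβ1 raised IL11 and CTGF and lowered RUNX2 (3 of 6), against 18.7% of all genes, 10% higher and 8.69% lower, and 0 of 6 members reached an absolute log2 fold change of 1 against 1.66% of all genes. At an unadjusted p under 0.05 that second comparison had 4 members, PTHLH being the fourth, against 30.2% of all genes, and DESeq2 called PTHLH as well. Between the lines under vehicle, PTHLH and SPP1 were higher in S134A-GR cells and IL11, CTGF and RUNX2 lower (5 of 6), but 51.5% of all genes tested passed that comparison, 25% higher and 26.5% lower, so a call alone sets the members little apart. PTHLH and SPP1 (2 of 6) differed by at least 1 on the log2 scale, as did 9.51% of all genes. Under TGFβ1 the same 2 genes were higher in S134A-GR cells and IL11, CTGF, RUNX2 and CXCR4 lower (6 of 6), against 48.8% of all genes, 23.1% higher and 25.7% lower. PTHLH, SPP1, IL11 and CXCR4 (4 of 6) reached an absolute log2 fold change of 1 there, against 8.46% of all genes. Values near 1 crossed that level when a library was left out: PTHLH in wt-GR cells (0.99) without vehicle replicate 1 (1.048) or 2 (1.14) or TGFβ1 replicate 3 (1.08), and IL11 in S134A-GR cells (0.98) without TGFβ1 replicate 1 (1.02), which also left its line difference under TGFβ1 at -0.97 in place of -1.02. By edgeR and DESeq2 the S134A-GR response of IL11 was likewise under 1 (0.97 and 0.98). The wt-GR calls of SPP1 and CXCR4 and the CXCR4 call between lines depended on single libraries, as described with each gene. A permutation test of 3 libraries against 3 cannot give an exact two-sided p below 0.1, so the limma fit over all genes carries the tests.

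**Figure D1:**
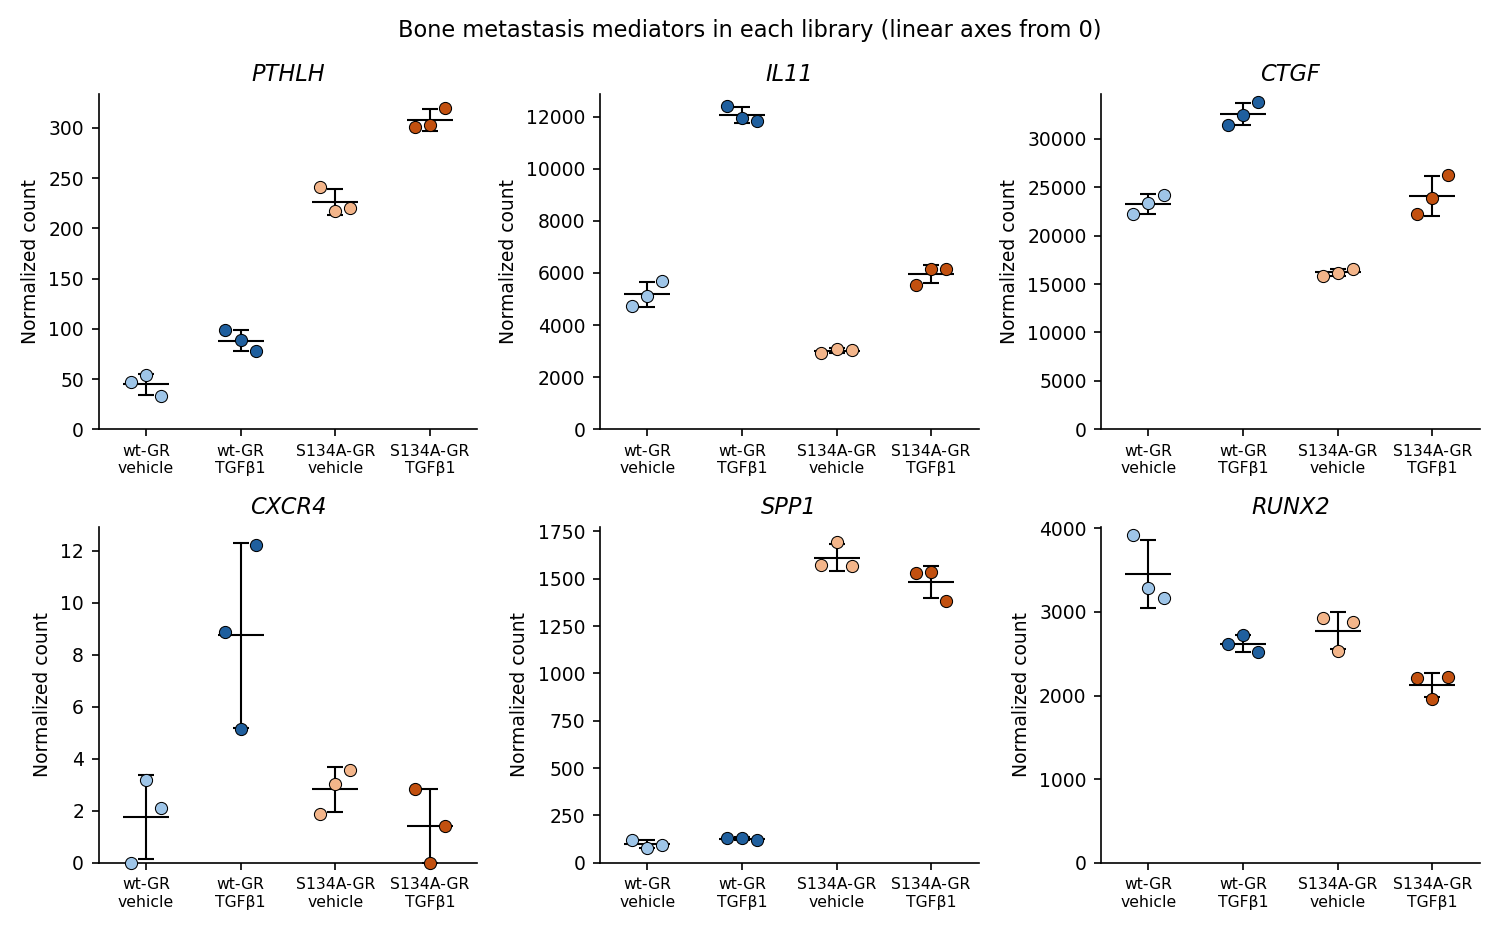
Normalized count of each of the 6 genes (1 panel a gene, linear axis from 0) in the 12 libraries, with each point a library and lines and bars the mean ± SD of 3 libraries in each of 4 groups. PTHLH and SPP1 sit higher in S134A-GR cells (226.1 and 1611 under vehicle) than in wt-GR cells (44.6 and 98.2), and IL11 and CTGF sit lower, with TGFβ1 raising IL11 and CTGF and lowering RUNX2 in both lines.

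Levels of different genes were compared as normalized counts per kilobase of the main transcript. In wt-GR cells under vehicle CTGF led with 9944 per kb, followed by IL11 with 2177, RUNX2 with 623, SPP1 with 62.9, PTHLH with 28.3 and CXCR4 with 1.05. The order in wt-GR cells under TGFβ1 was the same, CTGF at 13928 per kb and IL11 at 5075. In S134A-GR cells CTGF and IL11 again led (6938 and 1270 per kb under vehicle), but SPP1 with 1032 per kb stood above RUNX2 with 501, and PTHLH had 143. The place of SPP1 depended on the length used: per kb of all exons of any transcript, SPP1 had 222 and RUNX2 339 in S134A-GR cells under vehicle and 204.5 and 259.7 under TGFβ1, and in wt-GR cells under TGFβ1 SPP1 (17.7) stood under PTHLH (25.9). Exons of PTHLH, CTGF and SPP1 share 353, 278 and 196 bases with long noncoding RNA genes on the opposite strand, and as the strand setting of the counting is not given in the sources used here, reads from the pairs cannot be told apart.

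**Figure D2:**
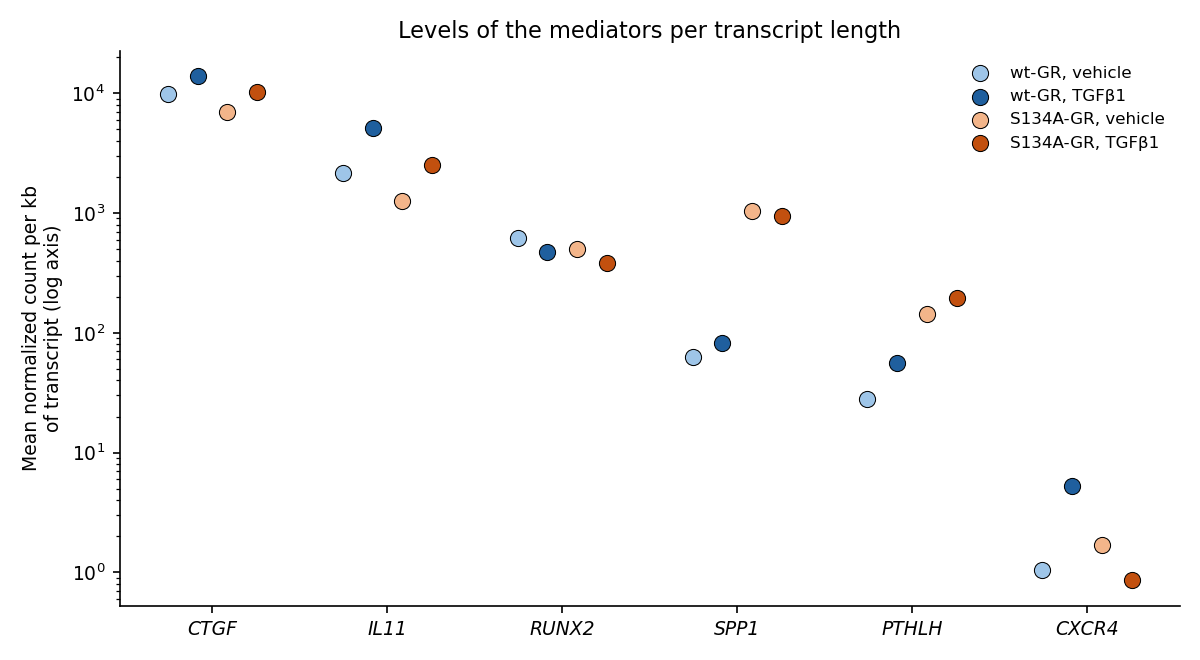
Mean normalized count per kilobase of main transcript (log axis) for the 6 genes in the 4 groups of 3 libraries. CTGF and IL11 are highest in all 4 groups, SPP1 stands at 62.9 per kb in wt-GR and 1032 in S134A-GR cells under vehicle, and CXCR4 lies lowest, between 0.856 and 5.24.

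PTHLH (chr12:27958084-27972733, minus strand, hg38) encodes the ligand that opens the osteolytic cycle. In wt-GR cells it had 47.3, 53.9 and 32.6 normalized counts in vehicle replicates 1 to 3 and 98.9, 88.6 and 77.4 under TGFβ1. In S134A-GR cells the values were 241.3, 216.9 and 220.0 under vehicle and 300.5, 302.7 and 319.8 under TGFβ1. The 4 groups were ordered without overlap, from wt-GR vehicle (44.6 ± 10.9, SD, n = 3) through wt-GR TGFβ1 (88.3 ± 10.7) and S134A-GR vehicle (226.1 ± 13.3) to S134A-GR TGFβ1 (307.7 ± 10.5), so that untreated S134A-GR cells held more PTHLH RNA than TGFβ1-treated wt-GR cells. The mean was 1.98 times higher with TGFβ1 in wt-GR cells (log2 fold change 0.99, SE 0.175, limma adjusted p = 0.000933) and 1.36 times higher in S134A-GR cells (0.44, SE 0.175, limma adjusted p = 0.0985, not past the threshold). That second value crossed the threshold in DESeq2 (0.00944), in a limma fit of only the compared groups (0.0177) and without wt-GR vehicle replicate 3 (0.44, limma adjusted p = 0.0342), and its adjusted p ranged from 0.00944 to 0.213 over 21 alternatives. Between the lines the difference was 5.07-fold under vehicle (log2 2.34, limma adjusted p = 7.91e-08) and 3.48-fold under TGFβ1 (log2 1.80, limma adjusted p = 1.18e-06). PTH1R, the receptor of the protein, is mainly known from bone and kidney cells and was detected here, at means of 530.5, 449.7, 950.5 and 699 normalized counts in wt-GR vehicle, wt-GR TGFβ1, S134A-GR vehicle and S134A-GR TGFβ1 cells. Like its ligand it was higher in S134A-GR cells, by 0.85 under vehicle and 0.63 under TGFβ1 on the log2 scale (limma adjusted p = 4.41e-05 and 0.000661). Its responses to TGFβ1 had the opposite sign to those of PTHLH, -0.23 in wt-GR (limma adjusted p = 0.221) and -0.45 in S134A-GR cells (limma adjusted p = 0.0187). The S134A-GR call was lost without S134A-GR vehicle replicate 1 or 3 or TGFβ1 replicate 1 and in a fit of only the compared groups. GLI2, a transcription factor known to drive PTHLH in breast cancer cells, rose with TGFβ1 by 0.71 in wt-GR and 0.42 in S134A-GR cells, and between the lines it differed by 0.06 under vehicle (limma adjusted p = 0.453) and by -0.22 under TGFβ1 (limma adjusted p = 0.0132). Whether GLI2 acts on PTHLH in these cells was not tested.

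IL11 (chr19:55364382-55370463, minus strand) encodes a cytokine of the interleukin 6 family that reaches osteoblasts. Its values in wt-GR cells were 4722, 5125 and 5683 under vehicle and 12413, 11949 and 11839.5 under TGFβ1. S134A-GR cells had 2928, 3083 and 3050.4 under vehicle and 5544, 6141 and 6149.8 under TGFβ1. S134A-GR vehicle was lowest (3020.2 ± 81.8) and wt-GR TGFβ1 highest (12067 ± 305), and between them wt-GR vehicle (5177 ± 482) and S134A-GR TGFβ1 (5945 ± 347) overlapped, so treated S134A-GR cells stood near the untreated level of wt-GR cells. TGFβ1 raised IL11 2.33-fold in wt-GR cells (log2 1.225, SE 0.0599, limma adjusted p = 3.31e-09) and 1.97-fold in S134A-GR cells (log2 0.98, limma adjusted p = 4.25e-08). The wt-GR mean was 1.71 times the S134A-GR mean under vehicle (log2 -0.77, limma adjusted p = 1.13e-07) and 2.03 times under TGFβ1 (log2 -1.02, limma adjusted p = 8.22e-09). IL11RA, the receptor subunit particular to this cytokine, went the other way between lines, with means of 468, 359, 693 and 558 in the order of groups used above and log2 differences of 0.57 and 0.63. IL6ST, which encodes the shared signalling subunit gp130, was lower in S134A-GR cells, with means of 10423 and 6817 under vehicle (log2 -0.61, limma adjusted p = 2.41e-06).

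CTGF (chr6:131948176-131951372, minus strand) encodes a matricellular protein and, in many cell types, a direct target of TGFβ. In wt-GR cells it had 22192, 23324 and 24229.5 normalized counts under vehicle and 31473, 32429.6 and 33788 under TGFβ1. In S134A-GR cells it had 15871, 16192 and 16601 under vehicle and 22189, 23889 and 26265 under TGFβ1. Again S134A-GR vehicle was lowest (16221 ± 366) and wt-GR TGFβ1 highest (32564 ± 1163), with wt-GR vehicle (23249 ± 1021) and S134A-GR TGFβ1 (24114.5 ± 2047) overlapping. TGFβ1 raised it 1.40-fold in wt-GR cells (log2 0.49, SE 0.0534, limma adjusted p = 1.27e-05) and 1.49-fold in S134A-GR cells (log2 0.57, limma adjusted p = 3.16e-06). Between the lines the log2 difference was -0.52 under vehicle (limma adjusted p = 1.81e-06) and -0.44 under TGFβ1 (limma adjusted p = 1.04e-05). LRP1, a receptor that binds CTGF, was higher in S134A-GR cells under TGFβ1, with means of 24264 against 12125 (log2 1.00, limma adjusted p = 0.000328). Under vehicle it differed by 0.65 (limma adjusted p = 0.00693), a call lost in a fit of only the compared groups. LRP6, the other listed receptor of CTGF, passed under neither treatment (log2 -0.20 under vehicle and -0.01 under TGFβ1). Of the other CCN family genes, CYR61 (57558 against 34740 under vehicle, log2 -0.73) and the rarely read WISP1 (18.5 against 2.54, log2 -2.76) shared the lower level in S134A-GR cells and NOV had the opposite one (2001 against 4397, log2 1.14), all with limma adjusted p under 0.05.

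IL11 and CTGF shared their order of groups and the direction of both responses and of both line differences, and their promoters are therefore shown, from RefSeq (GRCh38.p14), in which 6 of 6 members had an entry. Each sequence is the 250 bases before the transcription start, written 5′ to 3′ on the gene's own strand (minus), at chr19:55370464-55370713 for IL11 and chr6:131951373-131951622 for CTGF. Capitals mark matches, on either strand, to the SMAD element CAGAC (read as GTCTG on the other strand), the AP-1 element TGANTCA and the TEAD element GGAATG.
IL11: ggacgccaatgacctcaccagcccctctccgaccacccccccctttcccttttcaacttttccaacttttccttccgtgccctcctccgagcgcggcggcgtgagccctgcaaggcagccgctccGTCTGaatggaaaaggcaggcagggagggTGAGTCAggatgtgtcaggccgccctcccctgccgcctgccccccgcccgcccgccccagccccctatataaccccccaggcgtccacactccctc
CTGF: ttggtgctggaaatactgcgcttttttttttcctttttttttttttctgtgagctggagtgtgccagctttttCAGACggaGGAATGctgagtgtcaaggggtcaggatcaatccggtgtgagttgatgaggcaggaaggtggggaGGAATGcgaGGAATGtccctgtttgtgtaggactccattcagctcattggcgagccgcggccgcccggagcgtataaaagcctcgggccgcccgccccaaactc
The IL11 promoter held 1 SMAD match starting 125 bases before the start and 1 AP-1 match at 96 bases. The CTGF promoter held 1 SMAD match at 177 bases and 3 TEAD matches at 169, 104 and 95 bases, and in neither promoter did matches overlap each other. Over 35116 transcription starts, 38.0% of promoters of 250 bases held a SMAD match, 6.57% an AP-1 match and 11.9% a TEAD match. The full palindromic GR element (AGAACA and TGTTCT with 3 bases between) was in the windows of none of the 6 members and in 0.00285% of all promoters. No element was particular to this pair: SMAD matches were also in the windows of PTHLH, SPP1 and CXCR4, an AP-1 match in that of RUNX2 and a TEAD match before a second start of RUNX2. A match is a description of letters, and no binding was measured.

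SPP1 (chr4:87975667-87983532, plus strand) encodes osteopontin, a phosphoprotein of bone matrix that binds integrins and CD44. In wt-GR cells it had 120.6, 78.2 and 95.8 normalized counts under vehicle and 133.3, 129.6 and 121.2 under TGFβ1. In S134A-GR cells it had 1573, 1693 and 1567 under vehicle and 1528, 1537 and 1383 under TGFβ1. All 6 S134A-GR libraries lay far above all 6 wt-GR libraries, the lowest at 1383 against a highest of 133.3, and the order ran from wt-GR vehicle (98.2 ± 21.3) and wt-GR TGFβ1 (128.0 ± 6.21), whose nearest libraries were 120.6 and 121.2, to S134A-GR TGFβ1 (1483 ± 86.6) and S134A-GR vehicle (1611 ± 71.0). The line difference was 16.4-fold under vehicle (log2 4.04, SE 0.125, limma adjusted p = 2.36e-11) and 11.6-fold under TGFβ1 (log2 3.52, limma adjusted p = 7.66e-11). Treatment moved the gene far less: 1.30-fold up in wt-GR cells (log2 0.40, SE 0.125, limma adjusted p = 0.0357) and by -0.12 on the log2 scale in S134A-GR cells (limma adjusted p = 0.586). The wt-GR response was fragile. It lost its call without wt-GR vehicle replicate 2 (log2 0.25) or 3 (0.39), without wt-GR TGFβ1 replicate 1 (0.37), 2 (0.39) or 3 (0.44), without S134A-GR vehicle replicate 1 or 3 (0.40 each) and in a fit of only the compared groups. Its adjusted p ranged from 0.00165 to 0.196 over 21 alternatives, of which 13 kept the call. The receptors ITGAV and ITGB3, which pair as an integrin for osteopontin, ran opposite to it between the lines. ITGB3 had means of 1008, 2254, 426 and 1050.3 in the order of groups above, a log2 line difference of -1.24 under vehicle (limma adjusted p = 1.77e-08), and rose with TGFβ1 by 1.16 in wt-GR and 1.29 in S134A-GR cells. CD44 rose with TGFβ1 by 0.47 and 0.46, and its line difference was -0.07 under vehicle (limma adjusted p = 0.0796).

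Because SPP1 had the widest line difference of the 6 genes and RUNX2 is a known regulator of it in bone cells, its promoter is shown for the RUNX element ACCACA (RefSeq, GRCh38.p14, chr4:87975464-87975666, plus strand). The sequence holds the 203 bases upstream of every annotated exon of the gene, and the match is in capitals.
SPP1: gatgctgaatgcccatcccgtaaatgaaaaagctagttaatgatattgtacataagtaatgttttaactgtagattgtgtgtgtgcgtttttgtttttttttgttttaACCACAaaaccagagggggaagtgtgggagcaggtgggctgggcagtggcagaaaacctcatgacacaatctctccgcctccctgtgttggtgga
The match on the coding strand starts 142 bases before the RefSeq transcription start, and ACCACA on either strand was in 10.98% of the promoters of 250 bases. The window of RUNX2 itself held 2 matches, at 191 and 87 bases, so the element was not particular to SPP1. RUNX2 RNA itself ran opposite to SPP1 between the lines, as its values show, and whether RUNX2 acts on SPP1 in these cells was not tested. An exon of a long noncoding RNA gene on the opposite strand also covers part of this stretch.

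CXCR4 (chr2:136114349-136119177, minus strand), the only receptor among the 6, was barely read. Vehicle-treated wt-GR libraries held 0, 3 and 2 reads and TGFβ1-treated ones 8, 7 and 12. S134A-GR libraries held 2, 3 and 4 reads under vehicle and 3, 0 and 2 under TGFβ1. Only the wt-GR TGFβ1 libraries stood above the others, at 8.89, 5.13 and 12.2 normalized counts against at most 3.56 elsewhere. Pooled over 3 libraries and scaled by depth, 27 reads against 5 gave a ratio of 4.17 for TGFβ1 over vehicle in wt-GR cells (95% counting interval 1.58 to 13.9), and 5 against 27 reads gave 0.175 for S134A-GR over wt-GR under TGFβ1 (0.0526 to 0.461). Intervals of this kind cover counting error only and are too narrow if both mates of a pair were counted. A response in S134A-GR cells (5 reads under TGFβ1, 9 under vehicle) was not detectable at this depth, and neither was a line difference under vehicle (9 reads in S134A-GR, 5 in wt-GR cells). On the log2 scale of normalized count plus 1, the wt-GR response was 1.98 (SE 0.650, limma adjusted p = 0.0437) and 0.47 with 16 added instead of 1. That call was lost without wt-GR vehicle replicate 1 (1.37), wt-GR TGFβ1 replicate 1 (1.94), 2 (2.28) or 3 (1.73), S134A-GR vehicle replicate 1, 2 or 3 or S134A-GR TGFβ1 replicate 3 (1.98 each). It was also lost with 0.5 added (2.38), in edgeR (2.08), with the replicate block and in a fit of only the compared groups (1.98 each), and 7 of 19 alternatives kept it, with adjusted p from 0.0148 to 0.169. The line difference under TGFβ1 (log2 -2.14, limma adjusted p = 0.0138; -0.50 with 16 added) was lost without wt-GR TGFβ1 replicate 3 (-1.88) or S134A-GR TGFβ1 replicate 2 (-1.60), and 18 of 20 alternatives kept it, with adjusted p from 0.00433 to 0.0699. CXCL12, the ligand, had 5 reads in all libraries together and was not tested. ACKR3, the other receptor of CXCL12, was read more often, with means of 4.99, 27.8, 38.6 and 91.0 normalized counts in wt-GR vehicle, wt-GR TGFβ1, S134A-GR vehicle and S134A-GR TGFβ1 cells. ACKR3 rose with TGFβ1 in both lines (log2 2.28 and 1.218, limma adjusted p = 1.21e-05 and 0.00317) and was higher in S134A-GR cells under both treatments (log2 2.74 and 1.68), whereas CXCR4 reads under TGFβ1 were fewer there.

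RUNX2 (chr6:45328157-45664349, plus strand) encodes the only transcription factor of the group and was the only member with a fall under TGFβ1 that passed the threshold, which it did in both lines. In wt-GR cells it had 3917, 3281 and 3161 normalized counts under vehicle and 2615, 2719 and 2519.65 under TGFβ1. In S134A-GR cells it had 2924, 2527 and 2879 under vehicle and 2204, 1962 and 2216 under TGFβ1. S134A-GR TGFβ1 was lowest (2127 ± 143), wt-GR TGFβ1 (2618 ± 99.7) overlapped with S134A-GR vehicle (2777 ± 217), and wt-GR vehicle was highest (3453 ± 406). The response was -0.39 on the log2 scale in wt-GR cells (SE 0.0800, limma adjusted p = 0.00271) and -0.38 in S134A-GR cells (limma adjusted p = 0.00364). The line difference was -0.31 under vehicle (limma adjusted p = 0.00466) and -0.30 under TGFβ1 (limma adjusted p = 0.00622). Of the wt-GR vehicle libraries, replicate 1 was the highest for RUNX2. Replicates 1 and 3 of that group also differed by transcript length. Genes with transcripts from 7719 bases had median log2 deviations from the group mean of 0.14 and -0.14. Those of up to 1257 bases had -0.06 and 0.09. RUNX2 (5540 bases) had 0.19 and -0.12, and IL11 (2378 bases) -0.13 and 0.14. The part of transcript length in these values was not tested. Without replicate 1 the wt-GR response of RUNX2 was -0.30 (limma adjusted p = 0.00896) and the line difference under vehicle -0.22 (limma adjusted p = 0.0204), both still past the threshold. Over all 21 alternatives of each result the adjusted p lay between 1.51e-05 and 0.0192 for the response and between 0.000290 and 0.0280 for the line difference. CBFB, the partner that RUNX proteins need to bind DNA well, had means of 7172, 7961, 6929 and 7797 in the order of groups above. RUNX3 showed a far wider line difference than RUNX2, with means of 497 and 89.4 under vehicle (log2 -2.48, limma adjusted p = 3.60e-09), and rose with TGFβ1 by 0.84 and 0.89 where RUNX2 fell. RUNX1 had a line difference close to that of RUNX2 (log2 -0.33 under vehicle, limma adjusted p = 0.000434).

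Whether the response to TGFβ1 differed between the lines was tested directly, as the S134A-GR response minus the wt-GR response. By limma 0 of 6 members passed, by edgeR 0 as well and by DESeq2 0 of the 5 other than CXCR4, to which it gave no adjusted p, and in limma 4 (PTHLH, IL11, SPP1 and CXCR4) had an unadjusted p under 0.05. Of all genes tested 0.414% passed, 0.0592% with an absolute log2 difference of at least 1, and 9.30% had an unadjusted p under 0.05. SPP1 had a difference of -0.52 (95% interval -0.90 to -0.14, limma adjusted p = 0.359) and PTHLH one of -0.55 (-1.08 to -0.02, limma adjusted p = 0.521), so the calls of both genes in wt-GR cells alone are not shown to be a difference between lines. IL11 had -0.25 (-0.43 to -0.07, limma adjusted p = 0.359). CTGF, at 0.08 (-0.08 to 0.24), and RUNX2, at 0.01 (-0.23 to 0.25), had intervals on both sides of 0. CXCR4 had the widest difference at -2.82 (-4.79 to -0.84, limma adjusted p = 0.343), a value that rests on few reads and was -0.59 with 16 added. The sign for RUNX2 turned without wt-GR vehicle replicate 1 (-0.08), wt-GR TGFβ1 replicate 3, S134A-GR vehicle replicate 2, or S134A-GR TGFβ1 replicate 1 or 3. A p that misses the threshold does not show that the responses did not differ.

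**Figure D3:**
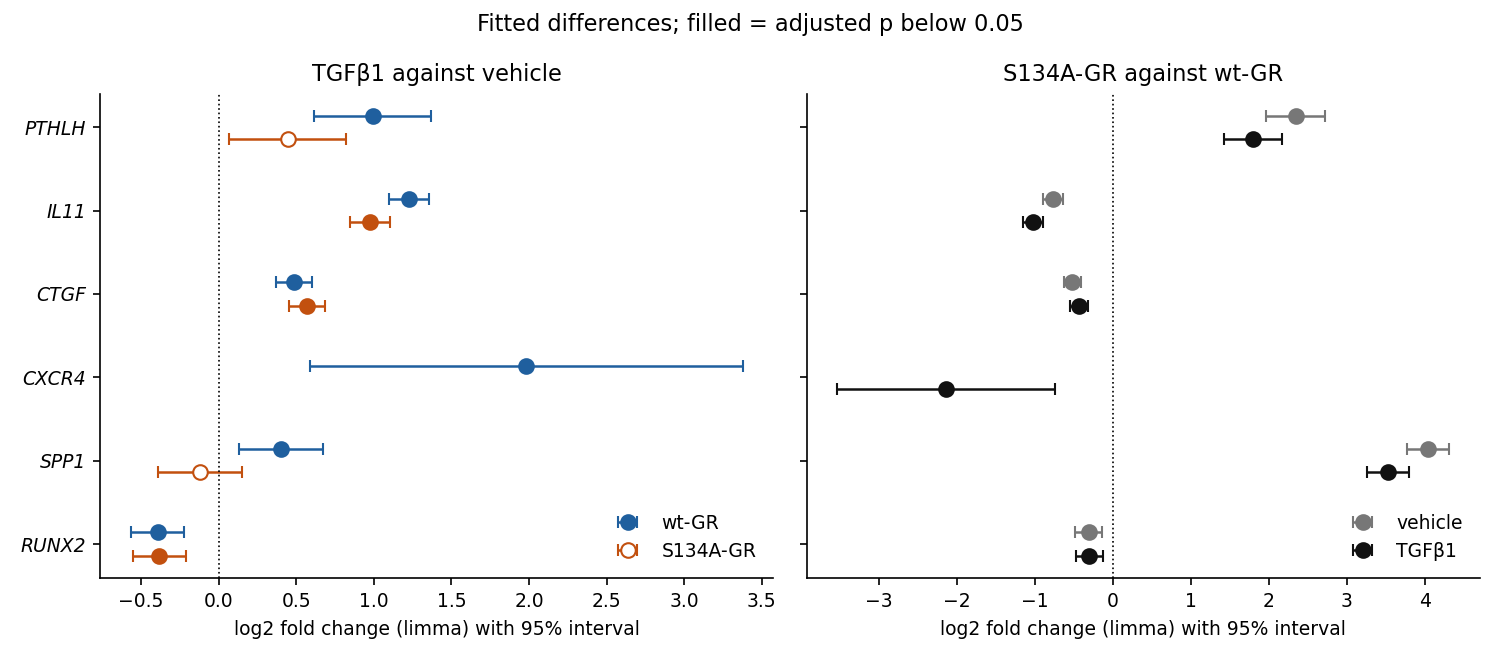
Log2 fold changes of the 6 genes with 95% intervals (limma, n = 3 libraries a group) for TGFβ1 against vehicle in each line and for S134A-GR against wt-GR cells under each treatment, filled where the adjusted p is under 0.05, with CXCR4 left out where both groups had too few reads. SPP1 at 4.04 and PTHLH at 2.34 are the widest line differences under vehicle, while responses lie between -0.39 and 1.98.

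Established targets of TGFβ signalling rose in both lines, which places the members' responses on a scale. SMAD7, SKIL, PMEPA1 and LTBP2 (4 of the 4 reported here) passed as higher in wt-GR and in S134A-GR cells, against 11.2% and 10% of all genes tested. Their median log2 fold changes were 1.41 and 1.52, against medians of -0.00 and -0.01 over all genes tested. SKIL rose by 1.62 and 1.51, compared with 1.225 and 0.98 for IL11 and 0.49 and 0.57 for CTGF. PMEPA1 responded less in S134A-GR cells (2.90 against 2.18, interaction -0.72, limma adjusted p = 0.000909).

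In a list of other genes known from osteolysis, more were lower than higher in S134A-GR cells. Of 24 tested of 26 in the list (2 were not analysed here), 17 were lower and 3 higher under vehicle, with a median log2 difference of -0.49 against 0.02 over all genes tested, and 16 were lower and 4 higher under TGFβ1 (median -0.43 against 0.01). Of all genes tested 26.5% were lower and 25% higher under vehicle, and 25.7% and 23.1% under TGFβ1. This list, like the others here, was chosen with earlier results of these data known. Its counts therefore describe the list and do not test a direction of osteolysis genes. PTHLH and SPP1 lay against the direction of most of this list and IL11 and CTGF with it. The gene for the collagenase MMP1, known with IL11, CTGF and CXCR4 from the bone-metastasis signature of this line, had means of 636 in wt-GR and 195 in S134A-GR cells under vehicle (log2 -1.71, limma adjusted p = 1.90e-08). The 3 higher ones under vehicle were SRGN (log2 0.43), NOG (0.74) and CTSK (0.59), the last without a call when S134A-GR vehicle replicate 3 was left out (0.46). CDH11, a cadherin of osteoblasts, fell from 6655 to 1012 (log2 -2.72) and MMP9 from 127 to 23.8 (log2 -2.39). MMP13, read less often, had means of 22.5 in wt-GR and 5.02 in S134A-GR cells under vehicle (log2 -1.85, limma adjusted p = 0.00321). VCAM1, an adhesion molecule that attracts osteoclast precursors, had 26.1 to 41.1 normalized counts in wt-GR vehicle libraries and at most 1.01 in S134A-GR libraries. TNFRSF11B, which encodes the RANKL decoy osteoprotegerin, had means of 242 and 116 (log2 -1.05), and TNFRSF11A, the receptor RANK, fell with TGFβ1 by 0.35 in wt-GR and by 0.57 in S134A-GR cells (log2 -0.35 and -0.57). TGFβ1 raised 7 and lowered 4 of the 24 in wt-GR cells and raised 7 and lowered 2 in S134A-GR cells, against 11.2% and 9.82% of all genes in wt-GR and 10% and 8.69% in S134A-GR cells. The 4 lowered were 2 without wt-GR vehicle replicate 2 and in a fit of only the compared groups. Of the 7 raised in wt-GR cells, LOX (log2 0.19) lost its call without any 1 of 5 libraries. CSF1, which encodes the growth factor of osteoclast precursors, fell from 8086 to 2976 in wt-GR cells (log2 -1.44) and from 4612 to 2277 in S134A-GR cells (log2 -1.02), in each line opposite to IL11.

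Genes of the osteoblast programme under RUNX2 did not move as a block with it. Of 10 tested, 3 rose and 0 fell with TGFβ1 in wt-GR cells by limma, 4 rose and 2 fell in S134A-GR cells, and the median log2 changes were 0.24 and 0.01. Of all genes tested 11.2% rose and 9.82% fell in wt-GR cells and 10% rose and 8.69% fell in S134A-GR cells. The counts were unsteady. In wt-GR cells 1 fell without vehicle replicate 2 or 3 and with 16 added. In S134A-GR cells 0 fell without vehicle replicate 1 or 2 and 1 without TGFβ1 replicate 1 or 3, and 2 rose without vehicle replicate 3 and in a fit of only the compared groups. COL1A1, a collagen of bone matrix, rose from 1153 to 8945 in wt-GR cells (log2 2.97) and from 2271 to 7923 in S134A-GR cells (log2 1.80), while RUNX2 fell in both. BMP2, an osteogenic ligand, had means of 40.9 in wt-GR and 171.9 in S134A-GR cells under vehicle (log2 2.05, limma adjusted p = 6.49e-07), a line difference near that of PTHLH. In the families of the members, 15 genes were tested of 17 in the files, and 6 were lower and 3 higher in S134A-GR cells under vehicle, next to 26.5% and 25% of all genes tested. Among the relatives of IL11, OSM and CTF1 were higher in S134A-GR cells (log2 1.58 and 0.74 under vehicle) and IL6 and LIF lower (log2 -0.53 and -0.26), all with limma adjusted p under 0.05. The call of IL6 was lost without wt-GR vehicle replicate 3 (-0.39) or S134A-GR vehicle replicate 1 (-0.43) and in a fit of only the compared groups. Of the 10 tested partners of the members, 5 rose and 1 fell with TGFβ1 in wt-GR cells and 6 rose and 2 fell in S134A-GR cells, compared with the shares of all genes given above for each line. The falls were unsteady here too: in wt-GR cells 0 fell without vehicle replicate 2 or TGFβ1 replicate 1 or 3 and 3 without vehicle replicate 3, and in S134A-GR cells 0 fell (and 4 rose) without vehicle replicate 1 or 3 or TGFβ1 replicate 1, 1 without vehicle replicate 2 or TGFβ1 replicate 3, and 0 in a fit of only the compared groups. Some rises were unsteady as well. The rise of CBFB in wt-GR cells lost its call without any 1 of 5 libraries and in a fit of only the compared groups. In S134A-GR cells the rises of CBFB and IL6ST also lost their calls without TGFβ1 replicate 3. Between the lines 4 partners were higher and 3 lower in S134A-GR cells, whichever the treatment, next to 25% and 26.5% of all genes under vehicle and 23.1% and 25.7% under TGFβ1. DESeq2 gave 5 lower under vehicle.

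**Figure D4:**
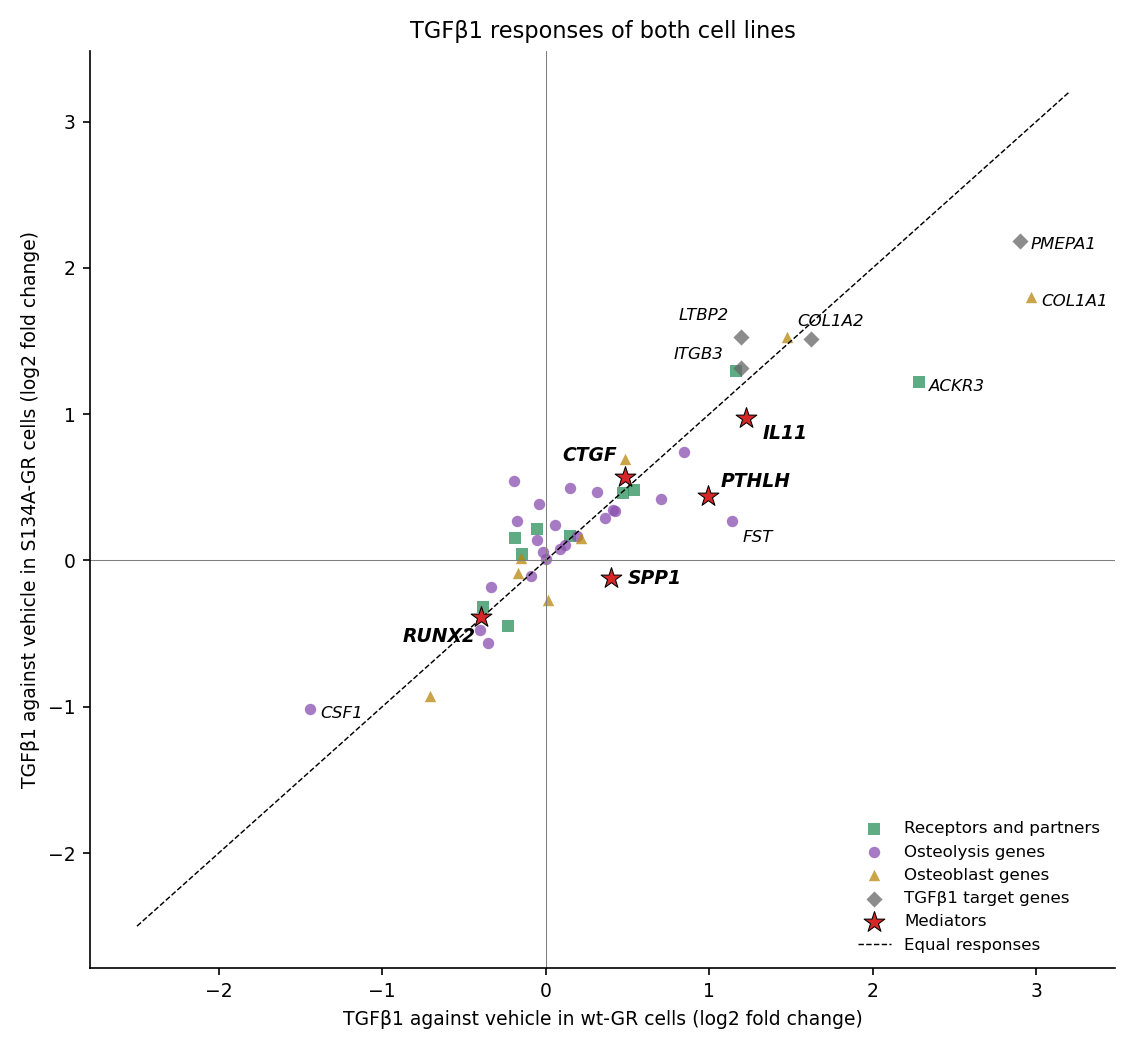
Log2 fold change with TGFβ1 in wt-GR cells (x) and S134A-GR cells (y), each point a gene of the lists and each star a member, the dashed line marking equal responses, with CXCR4 and genes of very low counts not drawn. IL11 lies at 1.225 and 0.98, CTGF at 0.49 and 0.57 and RUNX2 at -0.39 and -0.38, close to the line, and COL1A1, at 2.97 and 1.80, lies under it.

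The 10 nearest tested genes around each member (5 on each side) were compared in the same way, and the counts below stand against shares of 25% (higher) and 26.5% (lower) of all genes tested in the line comparison under vehicle. Nearest does not always mean close. The 10 genes spanned 181 kb around IL11, 1202 kb around SPP1 and 1628 kb around CTGF. They spanned 2261 kb around PTHLH, 2374 kb around RUNX2 and 7314 kb around CXCR4. Around SPP1, 7 of 10 neighbours were higher in S134A-GR cells under vehicle and 0 lower by limma, with called differences between 0.24 and 0.64 on the log2 scale and a median of 0.46 over the 10, next to 4.04 for SPP1. PPM1K, 1 of the 7, lost its call without wt-GR vehicle replicate 3 (log2 0.16) or S134A-GR vehicle replicate 2 (0.21). Around PTHLH, 2 neighbours were higher and 4 lower, with a median of -0.03. ERGIC2, 1 of the 4 (-0.09, limma adjusted p = 0.0484), lost its call with the replicate block and without any 1 of 10 libraries, which were all but wt-GR TGFβ1 replicates 1 and 2, with values between -0.10 and -0.09. MANSC4, at means of 1.41 in wt-GR and 14.6 in S134A-GR cells, was the only one to pass with a difference of at least 1. Around CTGF 0 were higher and 5 lower, with VNN2 at means of 24.4 and 2.53, and AKAP7 (-0.45) lost its call without wt-GR vehicle replicate 2 or S134A-GR vehicle replicate 3 (-0.34 each). Around IL11 4 were higher and 1 lower, and HSPBP1 (0.14) lost its call in a fit of only the compared groups and without wt-GR vehicle replicate 1 (0.10) or 2 (0.11) or S134A-GR vehicle replicate 1 (0.14) or 2 (0.12). RUNX2 had 1 higher and 5 lower neighbours, among them ENPP4 (709.6 and 272.5, log2 -1.37), RCAN2 (133.8 and 40.6, log2 -1.69) and CLIC5 (61.7 and 15.8, log2 -1.83), each wider than RUNX2 itself at -0.31. Around CXCR4 2 were higher and 6 lower. THSD7B, 646 kb from CXCR4, had means of 13.2 and 185.9 (log2 3.74). HNMT, 1845 kb from it, had 3327 and 1579 (log2 -1.08), and DARS-AS1 had 85.9 and 42.3 (log2 -1.01).

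**Figure D5:**
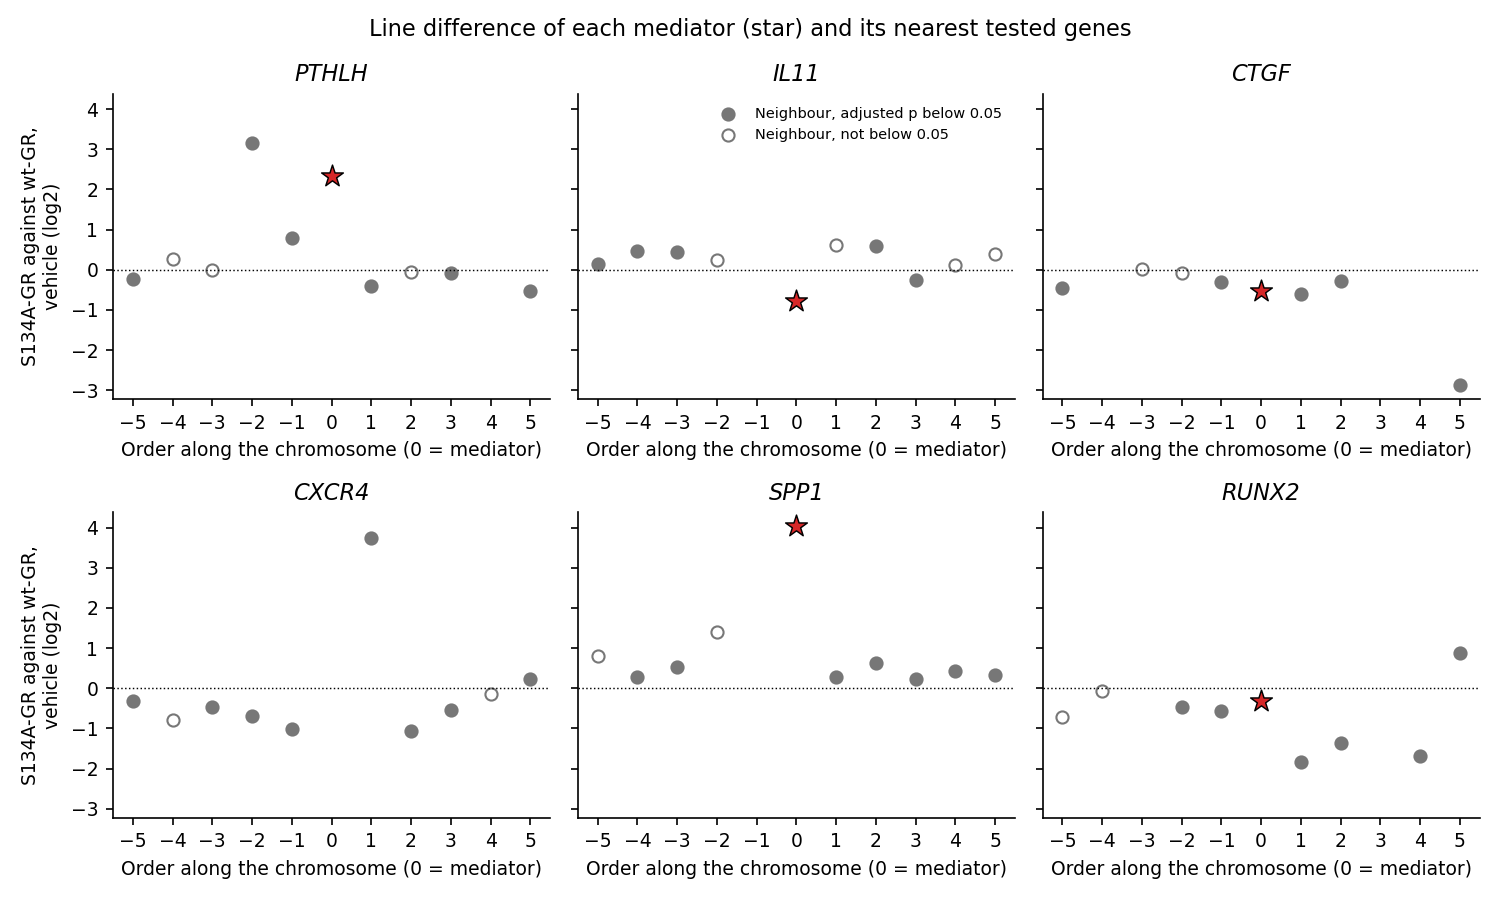
Log2 difference of S134A-GR from wt-GR cells (both under vehicle) for each member (star, position 0) and its 5 nearest tested genes on either side, in order along the chromosome, filled where the limma adjusted p is under 0.05, with genes of very low counts and the star of CXCR4 not drawn. SPP1 at 4.04 stands above neighbours whose called differences are 0.24 to 0.64, and neighbours of RUNX2 reach -1.83.

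The genes most like each member over the 12 libraries were named by Pearson correlation of log2 values with the other genes of mean normalized count of at least 100 (12467, and 12468 for CXCR4, which lies under that level itself), as a description. The 12 libraries share 4 groups, so the points behind each r are not independent. CEP170B, PCOLCE2 and MMP14 were most like PTHLH (r = 0.988, 0.987 and 0.983), HRH1, HMOX1 and GNL3 most like IL11 (0.994 each), and LPAR5, CCT2 and GFPT2 most like CTGF (0.986, 0.984 and 0.980). FBXO18, FKBP10 and MAGEC2 were most like SPP1 (0.996 each), where 576 genes reached 0.95. BCL9, GLI3 and ZNF608 were most like RUNX2 (0.981, 0.976 and 0.972). For CXCR4, with its few reads, the highest were UNC50, LITAF and SELPLG at 0.866, 0.798 and 0.790.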

How the data were processed

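RNA from MDA-MB-231 cells was sequenced as paired-end reads of 75 bases. The authors used FastQC 0.11.7 for quality, Trimmomatic for trimming, HISAT2 (hg38) for alignment and featureCounts of Subread for counting, and deposited counts divided by DESeq2 (1.22.2) size factors, a signal that is never negative and is called a normalized count here. Annotation, strand setting and the versions of the other tools are not given in the sources used here. In each library 100% of the deposited values were whole multiples of 1 read within 0.01 reads, so reads were recovered, and their totals give the depth.

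Log2(normalized count + 1) was fitted with limma 3.58.1 (R 4.3.3) over 4 group means, for genes with at least 10 reads in all libraries. Fold changes are on that scale, which understates changes of low genes. P-values were adjusted by Benjamini-Hochberg over all 18579 genes, and a gene was called at an adjusted p under 0.05. The script was tested on simulated data. Alternatives were pseudocounts of 0.5 and 16, edgeR's filterByExpr, a minimum of 1 read, edgeR 4.0.16 (quasi-likelihood) and DESeq2 1.42.0 on recovered reads, TMM scaling, a replicate block, a fit of only the groups compared, and leaving out each library.

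Members, partner, family and pathway lists were chosen with earlier results of these data known, and 1 gene of the TGFβ1 target list is not reported here. Named genes were the members and the 3 most like genes of each. Neighbours were named with a called line difference under vehicle of at least 1 in absolute log2. List genes were named for the largest called changes of at least that size, or by role with smaller changes, such as TNFRSF11A. Genes singled out beyond these rules, such as PPM1K, ERGIC2, AKAP7 and HSPBP1, were chosen after their values were seen. Transcript lengths and positions came from GENCODE 44, in which 18809 of 19907 symbols matched (95.0% of those tested). Promoters were searched over all 250 bases and printed without the bases in exons of the gene.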

Additional observations from a re-analysis of the deposited data

Results flagged for a closer look

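SPP1 had higher values under TGFβ1 than under vehicle in every wt-GR library and lower values in every S134A-GR library, and the difference of its responses was -0.52 on the log2 scale (limma adjusted p = 0.359; 0.0537 to 0.656 over 20 alternatives). The other genes below had a difference of responses past the threshold. Among the osteolysis genes CSF1 had 0.42 (limma adjusted p = 0.00870) and DKK1, a Wnt antagonist, 0.35 (limma adjusted p = 0.00930). FST, an activin antagonist, had -0.87 (limma adjusted p = 0.0121), with vehicle and TGFβ1 means of 527 and 1161 normalized counts in the wt-GR line and 302 and 364 in the S134A-GR line. FGF5 had 0.45 (limma adjusted p = 0.0159), a call that was lost without wt-GR vehicle replicate 2 (0.45), wt-GR TGFβ1 replicate 1 (0.42) or S134A-GR vehicle replicate 2 (0.44). CDH11 had 0.43 (limma adjusted p = 0.0311), and its call was lost without any 1 of 9 libraries, which were all but wt-GR vehicle replicate 3, S134A-GR vehicle replicate 1 and S134A-GR TGFβ1 replicate 2, with values between 0.39 and 0.45. COL1A1 had -1.17 (limma adjusted p = 0.00265) and PMEPA1 -0.72 (limma adjusted p = 0.000909). Groups of 3 libraries were not tested for outliers.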

How the results depend on the processing

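Of 256 member values under other settings 249 kept their direction and their side of the threshold, as did 337 of 360 values with 1 library left out; 17 of the rest lost a call, 1 gained one and 5 turned sign. Causes were not tested. The fit of only the groups compared ended the wt-GR response of SPP1 (0.40) and CXCR4 (1.98) and gave the S134A-GR response of PTHLH a call (0.44), as did DESeq2 (0.45). For CXCR4 the wt-GR response also lost its call with a pseudocount of 0.5 (2.38), with edgeR (2.08) and with the replicate block (1.98, limma adjusted p = 0.0588, in a range of 0.0148 to 0.169). filterByExpr removed CXCR4, so it has no value there. Leaving out 1 library gave 0.25 to 0.56 for the wt-GR response of SPP1, 1.37 to 2.40 for that of CXCR4, 0.41 to 0.49 for the S134A-GR response of PTHLH, -2.57 to -1.60 for CXCR4 between lines under TGFβ1 and -0.084 to 0.071 for the difference of responses of RUNX2. Without 1 library a group of 2 is assumed to vary like the others.

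Genes with a difference of responses numbered 77, 211 with DESeq2, and 22 (without wt-GR TGFβ1 replicate 1) to 166 (without wt-GR vehicle replicate 3) with 1 library left out, moving by over 1.5 times in all cases but wt-GR vehicle replicate 1 (54) and S134A-GR TGFβ1 replicate 1 (58). No pairing of the libraries by replicate number was seen, but groups of 3 libraries are too small to show that there was none. Deviations from group means correlated at over 0.1 in 2 of 18 pairs with the same number, and 5 of 12 libraries correlated best with their own number. The mean r was 0.000893 for pairs with the same number and -0.000326 for the other pairs. The replicate block left 3678, 3198, 9425, 8908 and 58 genes called in the 5 comparisons, against 3910, 3475, 9569, 9070 and 77 without it. Depth limits CXCR4, with 46 reads in all.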
